A study of Mus musculus with 16 samples.

Results

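The genes described here are the replication-dependent histone genes of mouse liver, 12 h after partial hepatectomy (PHx) or a sham operation, in Ppara fl/fl mice and in Ppara△Hep mice, in which Ppara is disrupted in hepatocytes. A member is a gene whose annotated symbol matches the naming pattern of the clustered histone genes, with pseudogenes marked as such left out, and whose probe set carries that symbol alone. This gave 28 of 30139 genes, namely 5 of linker histone H1, 10 of H2A, 8 of H2B, 3 of H3 and 2 of H4. The choice used names and not measured changes. Hist1h2aj has no Entrez identifier in the annotation and kept its name; a RefSeq entry that lists this name as a synonym is typed as a pseudogene, so its place among the members is uncertain. A further 34 probe sets list several histone genes, all of 1 class (9 of H2A, 8 of H2B, 7 of H3 and 10 of H4), and are described by class only, numbered within a class.

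Most histone protein is made while DNA is copied. The clustered genes have no introns, and their mRNAs end in a stem-loop that is bound by SLBP in place of a poly(A) tail. NPAT, a coactivator that is switched on by cyclin E with CDK2, drives their transcription as cells enter S phase, and the mRNAs are broken down when DNA synthesis stops. Their level is therefore widely used as a sign of S phase. In mouse liver most hepatocytes start DNA synthesis after PHx later than the time sampled here.

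Of the members, 21 lie on chromosome 13 between 21722044 and 23934913 and 6 on chromosome 3 between 96219885 and 96270192 (GRCm38.p6, RefSeq gene table). Promoter sequences of 25 members were in the RefSeq table of that build. H2bc21, H3c7 and Hist1h2aj had no entry. The 150 bases before the RefSeq start are printed below for 6 members. These were called lower after PHx in both genotypes on the deposited scale, as were 12.1% of all genes, and were picked for that alone. Capitals mark 3 motifs that were searched on both strands. CCAAT is the core of the CCAAT box. TATAAA is a form of the TATA box. ATTTGCAT is the octamer of H2B promoters, bound by POU-domain factors. A motif on the opposite strand appears as its reverse complement.
H2ac18: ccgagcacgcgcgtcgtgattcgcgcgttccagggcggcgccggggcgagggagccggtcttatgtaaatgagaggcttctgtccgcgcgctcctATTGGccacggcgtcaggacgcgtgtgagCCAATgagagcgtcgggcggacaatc
H2bc18: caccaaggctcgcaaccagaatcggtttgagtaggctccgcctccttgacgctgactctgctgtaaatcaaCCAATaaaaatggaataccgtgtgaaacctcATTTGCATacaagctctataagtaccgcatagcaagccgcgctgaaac
H2bc9: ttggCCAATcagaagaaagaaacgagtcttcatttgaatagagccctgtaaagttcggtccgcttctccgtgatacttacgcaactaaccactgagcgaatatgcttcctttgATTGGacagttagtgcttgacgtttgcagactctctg
H2bc1: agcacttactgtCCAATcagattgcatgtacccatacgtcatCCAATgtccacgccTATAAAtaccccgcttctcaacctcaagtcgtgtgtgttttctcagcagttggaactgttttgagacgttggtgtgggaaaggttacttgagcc
H4c2: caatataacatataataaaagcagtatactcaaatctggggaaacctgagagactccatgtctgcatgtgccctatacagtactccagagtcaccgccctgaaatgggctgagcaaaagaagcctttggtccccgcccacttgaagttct
H4c1: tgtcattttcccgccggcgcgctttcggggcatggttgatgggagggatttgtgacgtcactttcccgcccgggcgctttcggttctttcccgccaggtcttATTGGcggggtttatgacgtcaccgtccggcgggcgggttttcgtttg

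H2ac18 lies on chr3:96245347-96245496 (plus strand), H2bc18 on chr3:96269550-96269699 (plus strand), H2bc9 on chr13:23543445-23543594 (minus strand), H2bc1 on chr13:23934157-23934306 (minus strand), H4c2 on chr13:23756787-23756936 (plus strand) and H4c1 on chr13:23761250-23761399 (minus strand). Within these stretches H2bc18 holds both a CCAAT box and the octamer, the latter beginning at position -48 from the start. H2bc1 holds a pair of CCAAT boxes and a TATA box, and H4c2 holds none of the 3 motifs. Over the 250 bases before the start, CCAAT was in 24 of the 25 members' promoters (96.0%) against 34.5% of 27025 promoters in the table. TATAAA was in 10 of the 25 against 13.0%, and the octamer in 8 (32.0%) against 1.61%. Of the 7 H2B promoters, 5 held the octamer. The promoters are not all independent. The stretch of H2ac18 shares an identical run of 110 bases with that of its near copy H2ac19. Those of the divergent neighbours H2ac12 and H2bc12 overlap by 123 bases, and those of H2bc1 and H2ac1 by 20 bases. In each of these pairs of neighbours the octamer is a single site, read on opposite strands and counted for both genes. A match of letters is a description and does not show a bound site.

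The arrays fall into 4 groups of 4, all from liver 12 h after the operation. The groups are sham and PHx in Ppara fl/fl mice, which the labels call wild type, and sham and PHx in Ppara△Hep mice, whose Ppara gene, for the fatty acid sensor PPARα, is disrupted in hepatocytes; other liver cells keep it. The labels give neither the Cre driver nor the strain, sex or age. They number the samples but do not say that every array came from its own mouse; the tests then rest on the spread among arrays, which may be technical. Array numbers follow the order of the samples and pair nothing across groups. On the log2 scale the deposited values ran from 0.07 to 12.11, and arrays of a group correlated at 0.986 to 0.997 across genes. Array medians were 2.02 to 2.08 for sham and 2.14 to 2.22 for PHx. Y-linked Kdm5d, Eif2s3y and Uty were between 3.44 and 5.39 on all 16 arrays and Xist between 1.35 and 1.65, so the groups did not differ in sex. Hepatocyte markers averaged 10.29 to 10.53 per array. With 4 arrays a group, their number sets the precision.

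Many members gave signals near those of genes that liver does not use. As a guide, the 95th percentile of the group means of 1526 olfactory and vomeronasal receptor genes was 2.11 in sham fl/fl, 2.01 in sham Ppara△Hep, 2.70 in PHx fl/fl and 2.76 in PHx Ppara△Hep livers. Above it stood 12, 14, 6 and 5 of the 28 members. The falling number reflects the limit as well as the members, since 641 of the 1526 receptor genes rose after PHx in fl/fl and 610 in Ppara△Hep livers. In all 4 groups 5 members stood above it: H1f2, Hist1h2aj, H2ac10, H2ac1 and H2bc1. For the other 23 members a change is a change near background. The background itself moved with PHx, as described below, so such changes may be understated or overstated.

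No member rose after PHx in either genotype on the deposited scale. In fl/fl livers 6 of 28 fell, as did 20.8% of all 30139 genes, and 0 rose, against 11.9% (limma, adjusted p below 0.05 over all genes). The members' median change was -0.16 against -0.04 over all genes. In Ppara△Hep livers 12 of 28 fell, against 17.5% of all genes, and 0 rose, against 14.8%, with a median of -0.23 against 0.01. All 6 that fell in fl/fl livers also fell in Ppara△Hep livers; 12.1% of all genes were lower in both. At an unadjusted p below 0.05, 11 and 16 members were lower and 0 higher. These directions depend on the scale. Subtracting each array's mean over antigenomic control probes, an alternative chosen after seeing the data, adds 0.33 to every change in either genotype, so that smaller falls turn to rises. On that scale the medians were 0.17 and 0.09, and 13 members in fl/fl and 8 in Ppara△Hep livers were called higher and 0 lower, where 65.0% and 71.2% of all genes were called higher and 3.5% and 4.49% lower. After cyclic loess, with array medians subtracted and after quantile normalization, 10, 18 and 19 members were called in fl/fl livers, all lower, where 16.6%, 43.6% and 43.0% of all genes were lower and 11.9%, 7.58% and 8.08% higher. The Ppara△Hep numbers were 16, 24 and 22, all lower, where 14.8%, 43.8% and 34.9% of all genes were lower and 12.2%, 7.1% and 8.58% higher. The members' median less the median of all genes was -0.12 in fl/fl and -0.24 in Ppara△Hep livers on the deposited scale. It was -0.16 and -0.27 after cyclic loess and -0.09 and -0.22 after quantile normalization. Subtracting array medians or antigenomic means takes the same value from every gene of an array, so it cannot change this difference.

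**Figure D1:**
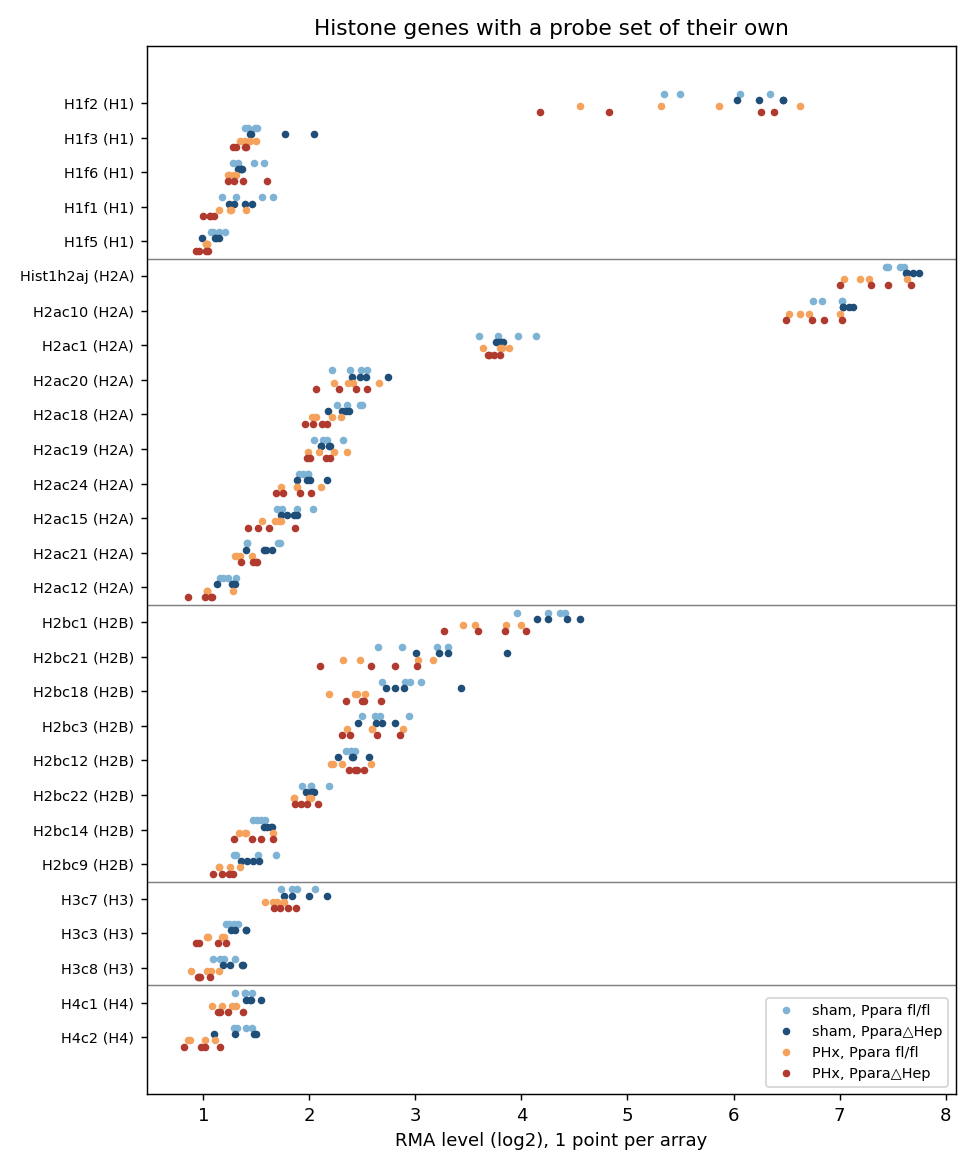
RMA level (log2, horizontal axis) of each member gene on each of the 16 arrays; rows are genes with their histone class, points are arrays, and colours give the 4 groups. On this deposited scale no gene was called higher after PHx, and most points lie below the receptor gene limits of 2.01 to 2.76; with antigenomic means subtracted the members' median changes turn to 0.17 and 0.09.

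The count in fl/fl livers varied with single arrays. It was 3 without sham fl/fl array 2 and 2 without PHx fl/fl array 2, and between 4 and 8 without any other array. In Ppara△Hep livers it was 6 without PHx array 3, 7 without PHx array 4, and between 8 and 15 without any other. Shares of all genes called with an array left out are not given here.

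The sample titles carry running numbers whose meaning the labels do not state, and these fall into 4 runs. PHx Ppara△Hep arrays 1 and 2 and PHx fl/fl array 1 lie in the first run, and arrays 3 and 4 of both PHx groups in the last. The other runs hold the sham arrays, with PHx fl/fl array 2 in the later one, so that PHx and sham meet in a single run and in fl/fl livers alone. There, 26 of 28 members were lower on that PHx array than the mean of the 2 sham fl/fl arrays, with a median of -0.21. The same figure for all genes was not computed. In the main fit 26 of 28 members and 17638 of 30139 genes had a change below 0 in fl/fl livers. With the run as a term in the fit, an alternative chosen after seeing the data, 3 members fell in fl/fl livers, against 6.61% of all genes, and 2 in Ppara△Hep livers, against 4.53%, with 0 higher. The medians were -0.23 and -0.38. The PHx changes in that fit rest on this array, and among the calls described below it kept those of H2bc18 in both genotypes, H4c2 in fl/fl and H3c8 in Ppara△Hep livers. Of the genotype comparisons, 0 gave a called member in it. After PHx the members' median difference between genotypes was 0.01 in the first run and -0.13 in the last.

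Linker histone H1 binds the DNA between nucleosomes. H1f2, which encodes a somatic H1 subtype, stood at 5.35, 6.34, 6.06 and 5.49 on the sham fl/fl arrays and at 5.86, 5.31, 4.55 and 6.63 on the PHx fl/fl arrays. It stood at 6.24, 6.46, 6.47 and 6.03 on the sham Ppara△Hep arrays and at 6.38, 6.26, 4.82 and 4.18 on the PHx Ppara△Hep arrays. After PHx its arrays thus spread over more than a 4-fold range in either genotype, and its changes of -0.22 ± 0.47 and -0.89 ± 0.47 (SE; adjusted p = 0.751 and 0.167) did not pass. H1f3 and H1f1, other somatic subtypes, fell in Ppara△Hep livers. H1f3 stood at 1.45, 1.44, 1.77 and 2.05 on sham and 1.40, 1.39, 1.28 and 1.31 on PHx arrays, a change of -0.33 ± 0.10 (limma adjusted p = 0.0225). Sham arrays 3 and 4 stood above arrays 1 and 2, and the call was lost without either of them or without PHx array 3 or 4 (highest adjusted p = 0.0645), with only the groups compared in the fit, and with antigenomic means subtracted (-0.0043, adjusted p = 0.973). H1f1 stood at 1.39, 1.46, 1.29 and 1.24 on sham and 1.10, 1.07, 0.99 and 1.06 on PHx arrays, with no overlap, a change of -0.29 ± 0.09 (adjusted p = 0.0237); this call was lost without sham array 1 or 2 or PHx array 3. The fl/fl changes were -0.03 ± 0.10 for H1f3 and -0.16 ± 0.09 for H1f1 (adjusted p = 0.835 and 0.203). H1f1 in Ppara△Hep livers turned to 0.04 with antigenomic means subtracted. The testis subtype H1f6 was between 1.23 and 1.60 on all arrays, and H1f5 between 0.93 and 1.20. On the deposited scale neither was called.

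H2A and H2B form the dimers that flank the central tetramer of H3 and H4 in the nucleosome. Of the 10 H2A members 1 fell in fl/fl and 2 fell in Ppara△Hep livers, where 20.8% and 17.5% of all genes fell. H2ac18, of the chromosome 3 cluster, stood at 2.48, 2.49, 2.35 and 2.26 on sham fl/fl and 2.06, 2.03, 2.30 and 2.22 on PHx fl/fl arrays. Its change was -0.24 ± 0.07 (limma adjusted p = 0.0200), and the groups overlapped. On Ppara△Hep arrays it stood at 2.37, 2.17, 2.35 and 2.31 on sham and 2.16, 2.11, 2.03 and 1.96 on PHx arrays, without overlap (-0.23 ± 0.07, adjusted p = 0.0247). The changes turned to 0.08 and 0.09 with antigenomic means subtracted. The call was lost without any of sham fl/fl arrays 1 and 2 and PHx fl/fl arrays 1 and 2, and in Ppara△Hep livers without any of sham arrays 1, 3 and 4 and PHx arrays 3 and 4. H2ac12 fell in Ppara△Hep livers by 0.24 ± 0.07 (adjusted p = 0.0163; 0.09 with antigenomic means subtracted; call lost without PHx array 3).

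The H2A members with signals well above the receptor genes did not pass on the deposited scale. Hist1h2aj stood at 7.57, 7.46, 7.61 and 7.44 on sham fl/fl and 7.28, 7.04, 7.64 and 7.19 on PHx fl/fl arrays. It stood at 7.63, 7.75, 7.69 and 7.63 on sham Ppara△Hep and 7.67, 7.29, 7.45 and 6.9998 on PHx Ppara△Hep arrays. PHx array 3 of fl/fl livers stood above all sham fl/fl arrays and PHx array 1 of Ppara△Hep livers within the sham range, while the others stood below it. Its changes were -0.23 ± 0.13 and -0.32 ± 0.13 (adjusted p = 0.185 and 0.0690). H2ac10 stood in the same order of arrays, at 6.71, 6.52, 7.003 and 6.62 after PHx in fl/fl and 7.02, 6.74, 6.86 and 6.49 after PHx in Ppara△Hep livers, against 6.75 to 7.03 and 7.03 to 7.12 after sham. Its changes were -0.19 ± 0.11 and -0.29 ± 0.11 (adjusted p = 0.196 and 0.0584). Hist1h2aj and H2ac10 were called lower in both genotypes with array medians subtracted and after quantile normalization (highest limma adjusted p = 0.0427). Under these scalings 34.9% to 43.8% of all genes were lower. Neither gene passed after cyclic loess. Neither passed with antigenomic means subtracted, where the changes were 0.10 and 0.01 for Hist1h2aj and 0.13 and 0.04 for H2ac10. H2A coding sequences are nearly identical between genes, so probe sets named for 1 gene may also bind RNA of others. H2ac1, a testis gene, was between 3.60 and 4.14 on all arrays, with changes of -0.09 ± 0.09 and -0.07 ± 0.09. The group means of the remaining H2A members (H2ac15, H2ac19, H2ac20, H2ac21 and H2ac24) lay between 1.35 and 2.54 and none was called on the deposited scale.

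Of the 8 H2B members 3 fell in fl/fl and 4 fell in Ppara△Hep livers, where 20.8% and 17.5% of all genes fell. H2bc18 stood at 3.05, 2.95, 2.69 and 2.90 on sham fl/fl and at 2.53, 2.19, 2.45 and 2.43 on PHx fl/fl arrays, with no overlap. This is a change of -0.50 ± 0.13 (limma adjusted p = 0.0101). The Ppara△Hep values were 2.89, 2.81, 2.73 and 3.43 on sham and 2.67, 2.52, 2.49 and 2.35 on PHx arrays, also without overlap. The change was -0.46 ± 0.13 (adjusted p = 0.0160), lost without PHx Ppara△Hep array 4. H2bc1, a testis gene, stood at 3.96, 4.41, 4.36 and 4.25 on sham fl/fl and 3.99, 3.56, 3.45 and 3.85 on PHx fl/fl arrays. The groups overlapped narrowly, and the change was -0.53 ± 0.16 (adjusted p = 0.0207), lost after cyclic loess at -0.44 and without any of sham fl/fl arrays 2 and 3 and PHx fl/fl arrays 2 and 3. Its Ppara△Hep levels were 4.25, 4.15, 4.43 and 4.55 on sham and 3.85, 4.04, 3.59 and 3.27 on PHx arrays, without overlap (-0.66 ± 0.16, adjusted p = 0.00621). With antigenomic means subtracted neither gene kept its calls, at -0.17 and -0.13 for H2bc18 and -0.21 and -0.33 for H2bc1.

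H2bc9 stood at 1.29, 1.68, 1.51 and 1.31 on sham fl/fl and 1.25, 1.15, 1.34 and 1.15 on PHx fl/fl arrays, with overlap. The change was -0.23 ± 0.08 (adjusted p = 0.0442), and the call was lost in 9 of the 16 refits that left out an array (highest adjusted p = 0.138). The Ppara△Hep change was -0.24 ± 0.08 (adjusted p = 0.0338). With antigenomic means subtracted these turned to 0.10 and 0.09. H2bc21, whose mRNA can also carry a poly(A) tail, stood at 3.31, 3.00, 3.22 and 3.87 on sham Ppara△Hep and 3.02, 2.81, 2.58 and 2.10 on PHx Ppara△Hep arrays. The groups overlapped narrowly (-0.72 ± 0.24, limma adjusted p = 0.0311), and the call was lost with antigenomic means subtracted (-0.40, adjusted p = 0.133). In fl/fl livers its sham arrays lay between 2.64 and 3.31 and its PHx arrays between 2.31 and 3.17 (-0.26 ± 0.24, adjusted p = 0.434). The group means of H2bc3, H2bc12, H2bc14 and H2bc22 lay between 1.45 and 2.68 and none was called on the deposited scale.

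H3 and H4 form the tetramer at the centre of the nucleosome. Both H4 members fell in both genotypes, as did 12.1% of all genes. H4c2 stood at 1.40, 1.29, 1.46 and 1.31 on sham fl/fl and 0.87, 0.86, 1.11 and 1.02 on PHx fl/fl arrays, without overlap (-0.40 ± 0.09, limma adjusted p = 0.00427). The Ppara△Hep arrays gave 1.10, 1.29, 1.501 and 1.48 on sham and 0.97, 1.16, 0.81 and 1.02 on PHx arrays, with overlap (-0.35 ± 0.09, adjusted p = 0.00894). Its calls held in each refit that left out an array, but not with antigenomic means subtracted (-0.08 and -0.03). H4c1 stood at 1.39, 1.46, 1.39 and 1.30 on sham fl/fl and 1.31, 1.18, 1.08 and 1.27 on PHx fl/fl arrays (-0.18 ± 0.06, adjusted p = 0.0414). On Ppara△Hep arrays it stood at 1.44, 1.40, 1.45 and 1.54 on sham and 1.38, 1.23, 1.16 and 1.14 on PHx arrays, without overlap (-0.23 ± 0.06, adjusted p = 0.0105). With antigenomic means subtracted these turned to 0.15 and 0.09, and the fl/fl call was lost in 7 of the 16 refits that left out an array and with only the groups compared in the fit.

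Of the 3 H3 members 0 were called in fl/fl and 2 fell in Ppara△Hep livers, where 20.8% and 17.5% of all genes fell. H3c8 stood at 1.36, 1.19, 1.25 and 1.37 on sham and 0.96, 1.06, 0.97 and 0.95 on PHx arrays (-0.31 ± 0.06, adjusted p = 0.00199), and H3c3 at 1.26, 1.30, 1.41 and 1.40 and at 0.95, 1.21, 0.93 and 1.14 (-0.28 ± 0.07, adjusted p = 0.00462). Neither overlapped, and with antigenomic means subtracted they turned to 0.02 and 0.04. The fl/fl changes were -0.15 ± 0.06 and -0.16 ± 0.07 (adjusted p = 0.0794 and 0.0827). H3c7 changed by -0.20 ± 0.09 and -0.17 ± 0.09 (adjusted p = 0.0837 and 0.137). The PHx arrays lay wholly below the sham arrays for 4 of 28 members in fl/fl livers, against 19.9% of all genes, and for 11 in Ppara△Hep livers, against 16.2%. By locus, 2 of 6 members on chromosome 3 and 4 of 21 on chromosome 13 fell in fl/fl livers, and 3 of 6 and 9 of 21 in Ppara△Hep livers. Of all genes 20.8% fell in fl/fl and 17.5% in Ppara△Hep livers. Differences between the loci were not tested.

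The probe sets shared by several histone genes, fitted over all 72688 probe sets in an analysis added after the annotation was seen, gave wider falls. In fl/fl livers 21 of 34 fell and 0 rose, against 11.2% lower and 14.4% higher among all probe sets. The median was -0.36 against 0.02. In Ppara△Hep livers 29 of 34 fell and 0 rose, against 9.87% and 15.7%, with a median of -0.52 against 0.04. The 21 of fl/fl livers were all among the 29, and 6.1% of all probe sets were lower in both genotypes. The PHx arrays lay wholly below the sham arrays for 20 of 34 in fl/fl, against 11.9% of probe sets, and for 27 in Ppara△Hep livers, against 10.1%. Members of a class share genes and sequence here, so these probe sets are not independent measurements. With antigenomic means subtracted 8 of them were lower and 4 higher in fl/fl and 9 lower and 2 higher in Ppara△Hep livers. Of all genes, 3.5% and 4.49% were called lower there and 65.0% and 71.2% higher. The shares of all probe sets are not given here. On that scale the medians of the shared probe sets were -0.04 and -0.19, against 0.35 and 0.36 over all probe sets.

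The classes differed in size of change. In fl/fl livers 6 of 8 H2B, 7 of 10 H4, 6 of 7 H3 and 2 of 9 H2A probe sets fell, with medians of -0.80, -0.51, -0.31 and -0.18. The Ppara△Hep counts were 6 of 8, 9 of 10, 7 of 7 and 7 of 9, with medians of -0.71, -0.68, -0.40 and -0.28. Of all probe sets 11.2% fell in fl/fl and 9.87% in Ppara△Hep livers. The H2B and H4 medians stayed below 0 under all 5 scalings, at -0.47 and -0.18 in fl/fl and -0.38 and -0.35 in Ppara△Hep livers with antigenomic means subtracted. The H2A medians turned to 0.15 and 0.05 there, and the H3 median to 0.02 in fl/fl livers and -0.08 in Ppara△Hep livers. Differences between the classes were not tested.

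**Figure D2:**
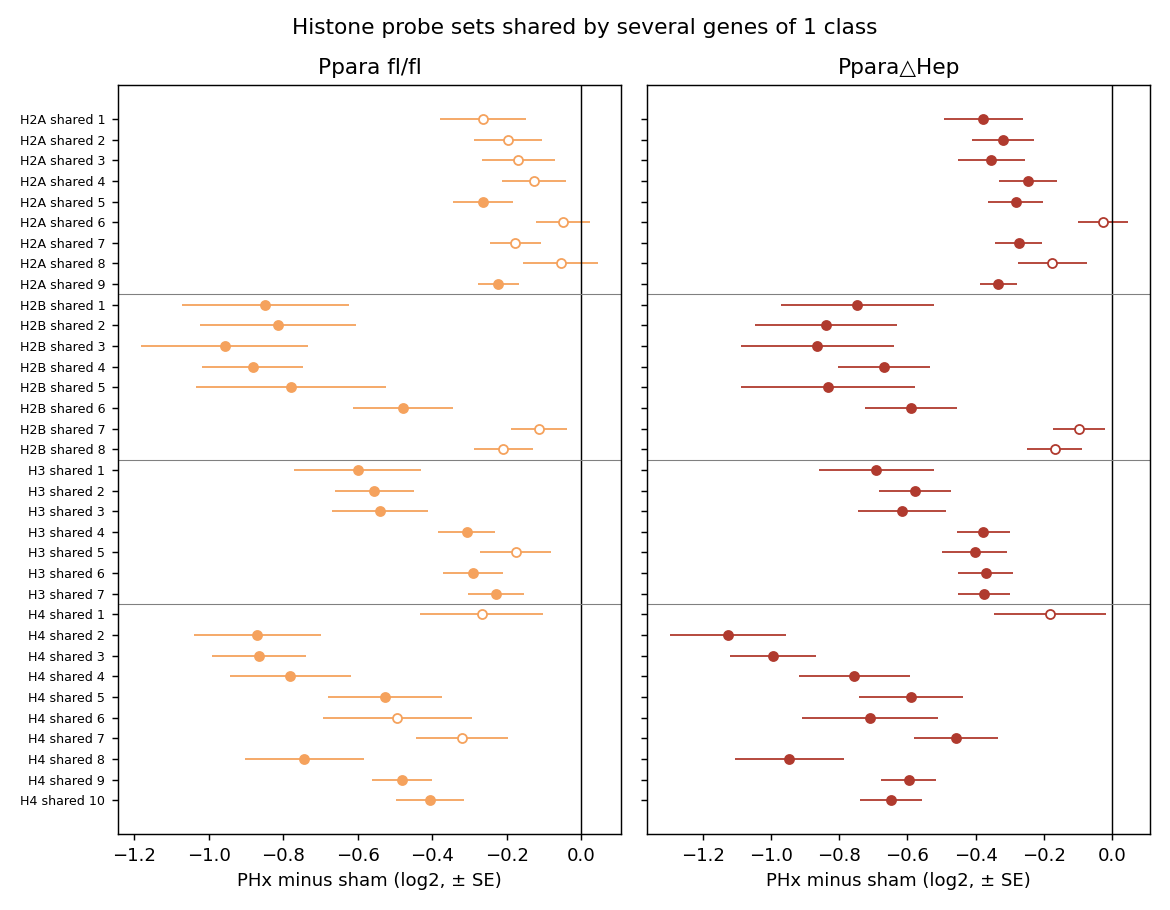
Change from sham to PHx (log2 difference ± SE, horizontal axis) of the 34 probe sets that list several histone genes of 1 class, in Ppara fl/fl (left) and Ppara△Hep livers (right); filled points passed at adjusted p below 0.05. All 34 lie below 0 in both panels on the deposited scale, H2B and H4 farthest by class median. With antigenomic means subtracted 4 were called higher in fl/fl and 2 in Ppara△Hep livers, where 65.0% and 71.2% of all genes were.

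H4 shared 2, which lists 13 H4 genes, stood at 5.98, 5.71, 5.65 and 5.90 on sham fl/fl and 5.32, 4.70, 4.81 and 4.93 on PHx fl/fl arrays. It stood at 5.72, 5.86, 6.17 and 6.47 on sham and 5.29, 4.77, 4.90 and 4.77 on PHx arrays of Ppara△Hep livers. All PHx arrays were below all sham arrays, and PHx levels were 0.547 and 0.458 of sham (-0.87 ± 0.17 and -1.13 ± 0.17 on the log2 scale, adjusted p = 0.00157 and 0.000148). H2B shared 1, which lists 3 genes, stood at 8.09, 8.45, 8.37 and 8.34 on sham fl/fl and 7.91, 7.503, 6.84 and 7.60 on PHx fl/fl arrays. It stood at 8.20, 8.23, 8.39 and 8.53 on sham and 8.03, 7.96, 7.26 and 7.11 on PHx arrays of Ppara△Hep livers. PHx levels were 0.555 and 0.596 of sham (-0.85 ± 0.22 and -0.75 ± 0.22, limma adjusted p = 0.0118 and 0.0233), and arrays 3 of fl/fl and 3 and 4 of Ppara△Hep livers were the lowest. H3 shared 1, with 8 genes, stood at 6.10 to 6.32 and 6.08 to 6.504 after sham and at 5.19 to 5.98 and 5.28 to 5.93 after PHx (-0.60 ± 0.17 and -0.69 ± 0.17). H2A shared 1, with 10 genes, stood at 7.27 to 7.56 and 7.51 to 7.64 after sham and at 6.95 to 7.45 and 6.91 to 7.48 after PHx. It was called in Ppara△Hep livers only at -0.38 ± 0.12 (adjusted p = 0.0263; -0.26 ± 0.12 in fl/fl livers, adjusted p = 0.112); the difference between the genotypes did not pass.

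**Figure D3:**
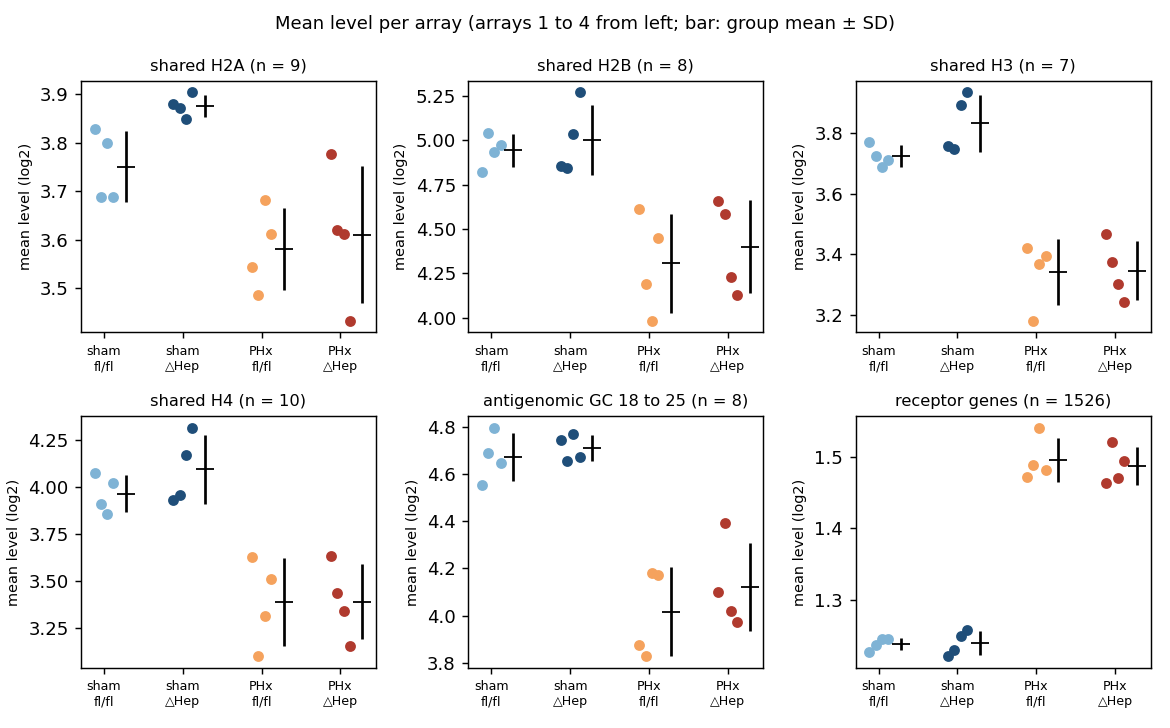
Mean RMA level (log2, vertical axes) per array, by group, of the shared H2A, H2B, H3 and H4 probe sets, the antigenomic control probe sets with 18 to 25 G or C bases, and the receptor genes; points are arrays and bars are group means ± SD. The shared H2B mean is 4.82 to 5.27 on sham and 3.98 to 4.66 on PHx arrays, the antigenomic mean 4.55 to 4.80 and 3.83 to 4.39, and the receptor gene mean is higher on PHx arrays; with antigenomic means subtracted the shared H2A and, in fl/fl livers, H3 medians turn above 0.

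The array's own background controls moved in the same direction as the histones. The 23 antigenomic control probe sets are designed to match no sequence of the genome and are grouped by the number of G and C bases in their probes. In fl/fl livers 13 of 23 and in Ppara△Hep livers 17 of 23 fell after PHx, and 0 rose, where 11.2% and 9.87% of all probe sets fell. The median change was -0.03 and -0.12 for the 8 sets with 3 to 10 G or C bases, -0.23 and -0.23 for the 7 sets with 11 to 17, and -0.66 and -0.55 for the 8 sets with 18 to 25. The receptor genes moved the other way, with medians of 0.18 in both genotypes. The base composition of the histone probes was not in the sources used here, and the part of these background shifts in the histone changes was not tested. The lowest called change was -0.72 among the members, -1.13 among the shared histone probe sets and -0.74 among the antigenomic sets. Within the PHx fl/fl group the mean of the antigenomic sets with 18 to 25 G or C bases was 3.88, 3.83, 4.18 and 4.17 on arrays 1 to 4. The shared H2A mean was 3.54, 3.49, 3.68 and 3.61, in the same order of arrays. The shared H2B mean was 4.61, 4.19, 3.98 and 4.45, in a different order. So were the shared H3 mean (3.42, 3.18, 3.37 and 3.39) and the shared H4 mean (3.63, 3.10, 3.32 and 3.51). Within the PHx Ppara△Hep group the antigenomic mean was 4.10, 4.39, 4.02 and 3.97 and the shared H2B mean 4.66, 4.58, 4.23 and 4.13. Arrays 1 and 2 were above arrays 3 and 4 in both, and in the shared H2A, H3 and H4 means.

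**Figure D4:**
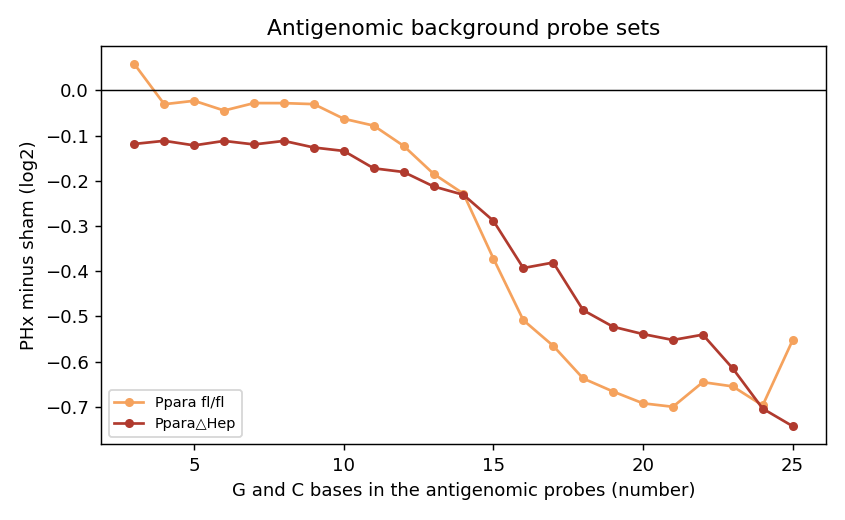
Change from sham to PHx (log2, vertical axis) of the 23 antigenomic control probe sets against the number of G and C bases of their probes, in each genotype. The points lie between -0.13 and 0.06 at 3 to 10 G and C bases and between -0.74 and -0.49 at 18 and more; these are the controls whose mean, when subtracted, turns the members' medians to 0.17 and 0.09.

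Genotype made no called difference to any member. Between Ppara△Hep and fl/fl livers 0 of 28 members passed after sham (0.0133% of all genes passed) and 0 after PHx (0.143%). The difference of the PHx changes passed for 0 members and 0.0% of genes. At an unadjusted p below 0.05 in limma, 1 member was higher in Ppara△Hep livers after sham (H1f3), 1 was lower after PHx (H1f1), and 0 differed in their PHx change. Of the shared probe sets 0 of 34 passed in any of these comparisons, with 2, 0 and 0 at an unadjusted p below 0.05. H1f2 differed by 0.49 ± 0.47 after sham and by -0.18 ± 0.47 after PHx, and its PHx change differed by -0.67 ± 0.67. The PHx change of H2bc21 differed by -0.46 ± 0.34 and that of H1f3 by -0.30 ± 0.14 (adjusted p = 0.643 and 0.462). After PHx H1f1 was lower in Ppara△Hep livers by -0.21 ± 0.09, with no overlap (limma adjusted p = 0.634), and H2bc21 differed by -0.12 ± 0.24. After sham H2bc21 differed by 0.34 ± 0.24 and H1f3 by 0.23 ± 0.10 (adjusted p = 0.694 and 0.525). A p that misses the threshold does not show that the genotypes are alike. The larger number of calls in Ppara△Hep than in fl/fl livers is not a tested difference.

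The genes that make and process histone mRNA mostly fell or did not pass. Of 21 measured genes of 25 listed, 0 rose and 7 fell in fl/fl livers, and 1 rose and 11 fell in Ppara△Hep livers, with medians of -0.11 and -0.25. Of all genes 20.8% fell and 11.9% rose in fl/fl and 17.5% and 14.8% in Ppara△Hep livers. Slbp, whose product binds the stem-loop, stood at 2.78, 2.81, 2.91 and 2.84 on sham fl/fl and 2.58, 2.69, 2.87 and 2.80 on PHx fl/fl arrays, which overlap (-0.11 ± 0.06, adjusted p = 0.197). Its Ppara△Hep change was -0.07 ± 0.06 (adjusted p = 0.417). Npat changed by 0.13 ± 0.14 and 0.13 ± 0.14 (adjusted p = 0.487 and 0.528). Lsm11, a protein of the U7 particle that cuts histone pre-mRNA, changed by -0.01 ± 0.05 in both genotypes. Its partner Lsm10 fell by 0.37 ± 0.10 and 0.48 ± 0.10 (adjusted p = 0.0117 and 0.00207), the former not passing after cyclic loess (adjusted p = 0.0648) and neither with antigenomic means subtracted (adjusted p = 0.698 and 0.132). Sympk, the scaffold of the cleavage complex, was between 5.13 and 5.27 on sham fl/fl and between 4.77 and 4.92 on PHx fl/fl arrays, and fell without overlap (-0.35 ± 0.07, limma adjusted p = 0.00135), a call lost with antigenomic means subtracted (-0.02, adjusted p = 0.831). It fell in Ppara△Hep livers by 0.56 ± 0.07. Casp8ap2, which binds NPAT at histone loci, fell by 0.22 ± 0.06 and 0.25 ± 0.06 (adjusted p = 0.0152 and 0.00602), turning to 0.11 and 0.07 with antigenomic means subtracted. The cleavage and cap-binding genes Cpsf1 (-0.34 ± 0.08 and -0.45 ± 0.08), Ncbp2 (-0.55 ± 0.14 and -0.56 ± 0.14) and Srrt (-0.35 ± 0.10 and -0.38 ± 0.10) fell in both, as did Mif4gd, a partner of SLBP in translation (-0.46 ± 0.14 and -0.78 ± 0.14), on the deposited scale. After cyclic loess Srrt lost both calls (adjusted p = 0.0811 and 0.0719), and Cpsf1 and Mif4gd lost those in fl/fl livers (adjusted p = 0.0689 and 0.0893). With antigenomic means subtracted Cpsf1, Ncbp2 and Srrt passed in neither genotype and Mif4gd in Ppara△Hep livers alone.

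Chaperones and acetylases of new histones fell in 4 of 17 measured genes of 19 listed in each genotype and rose in 0, with medians of -0.05 and -0.01. That number is near the 20.8% and 17.5% of all genes that fell, while 11.9% and 14.8% of all genes rose. Rbbp4, a subunit of the CAF-1 chromatin assembly factor and of other complexes, stood at 4.63, 4.77, 4.89 and 4.94 on sham fl/fl and 4.13, 4.07, 4.02 and 4.35 on PHx fl/fl arrays (-0.66 ± 0.09, limma adjusted p = 0.000113). The Ppara△Hep fall was 0.72 ± 0.09, and it was below 0 under all 5 scalings in both genotypes. Atrx, which deposits H3.3 with Daxx, fell by 0.30 ± 0.06 and 0.40 ± 0.06, the fl/fl change turning to 0.03 with antigenomic means subtracted and the Ppara△Hep call lost there at -0.07 (adjusted p = 0.384). Daxx fell by 0.30 ± 0.06 and 0.16 ± 0.06, turning to 0.03 and 0.17 on that scale, and the Ppara△Hep call was also lost after cyclic loess (adjusted p = 0.557). Asf1b, a chaperone of H3 and H4 in dividing cells, changed by -0.03 ± 0.04 and 0.05 ± 0.04 (adjusted p = 0.598 and 0.431).

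Replication-independent histone variants, which are made outside S phase from polyadenylated mRNA, fell in 5 of 13 measured genes of 18 listed in fl/fl livers and rose in 0. In Ppara△Hep livers 4 fell and 1 rose (H1f8, an oocyte gene, by 0.21 ± 0.06, a call lost after cyclic loess at adjusted p = 0.147). The medians were -0.23 and -0.07. The shares of all genes that fell were 20.8% and 17.5%, and 11.9% and 14.8% rose. H2az2, a variant of promoters, stood at 5.14, 5.52, 5.69 and 5.52 on sham fl/fl and 4.34, 4.32, 4.36 and 4.86 on PHx fl/fl arrays. On Ppara△Hep arrays it stood at 5.35, 5.42, 5.88 and 5.31 after sham and 4.999, 4.82, 4.48 and 4.23 after PHx. Neither pair of groups overlapped, and the changes of -1.001 ± 0.18 and -0.86 ± 0.18 (limma adjusted p = 0.000809 and 0.00223) passed under all 5 scalings. Its relative H2az1 fell by 0.42 ± 0.09 and 0.28 ± 0.09 (adjusted p = 0.00333 and 0.0277), the Ppara△Hep change turning to 0.04 with antigenomic means subtracted. The fl/fl call was lost on that scale (-0.09, adjusted p = 0.312) and the Ppara△Hep call after cyclic loess (-0.12, adjusted p = 0.313). H2ax, the variant marked at DNA breaks, changed by -0.26 ± 0.13 and -0.32 ± 0.13 (adjusted p = 0.131 and 0.0651). H3f3b and H1f0 had no probe set of their own and were not analysed here.

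Genes of the G1 to S transition and DNA replication rose in 2 and fell in 8 of 42 measured genes of 44 listed in fl/fl livers, and rose in 3 and fell in 7 in Ppara△Hep livers, with medians of -0.05 and -0.01. The falls are near the 20.8% and 17.5% of all genes, and the rises compare with 11.9% and 14.8%. Ccne1, the cyclin E gene that acts upstream of NPAT, stood at 2.99, 2.64, 2.84 and 2.74 on sham fl/fl and 3.13, 3.51, 3.43 and 3.18 on PHx fl/fl arrays. On Ppara△Hep arrays it stood at 2.65, 2.68, 2.80 and 2.63 after sham and 2.98, 3.204, 3.64 and 3.75 after PHx. All PHx arrays lay above all sham arrays, and it rose by 0.51 ± 0.14 and 0.70 ± 0.14 (limma adjusted p = 0.0144 and 0.00179), a call that held under all 5 scalings. Pcna, the sliding clamp of DNA polymerase, rose by 0.25 ± 0.09 and 0.28 ± 0.09 (adjusted p = 0.0465 and 0.0294), but not with array medians subtracted (adjusted p = 0.197 and 0.244), nor in fl/fl livers after quantile normalization (adjusted p = 0.0975). Rrm2, of nucleotide reduction, stood at 2.44, 3.59, 2.58 and 2.51 on PHx fl/fl arrays and 2.26 to 2.59 on sham fl/fl arrays, with array 2 alone above them (0.33 ± 0.19, adjusted p = 0.207). Genes of the replication licensing machinery gave -0.05 ± 0.06 and 0.03 ± 0.06 for Mcm2, -0.04 ± 0.07 and 0.01 ± 0.07 for Mcm5 and -0.02 ± 0.04 and 0.02 ± 0.04 for Cdc6, and the S phase cyclin gene Ccna2 gave -0.02 ± 0.04 and -0.05 ± 0.04; none passed.

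Among those that fell, Mcm10, which helps start replication forks, stood at 3.43, 3.68, 3.90 and 3.82 on sham fl/fl and 3.07, 3.22, 2.82 and 3.33 on PHx fl/fl arrays (-0.60 ± 0.11, limma adjusted p = 0.00114), a call lost with antigenomic means subtracted (-0.27, adjusted p = 0.0557). The Ppara△Hep livers gave a fall of 1.03 ± 0.11. E2f1 and E2f2, transcription factors of the S phase programme, fell by 0.34 ± 0.07 and 0.43 ± 0.05 in fl/fl and by 0.29 ± 0.07 and 0.28 ± 0.05 in Ppara△Hep livers. With antigenomic means subtracted these were -0.01 and -0.10, and 0.04 and 0.05. Of 19 measured G2/M genes of 22 listed, 0 rose in either genotype, while 2 (Aurkb and Ccnb2) fell in fl/fl and 1 (Kif11) in Ppara△Hep livers. These falls turned to 0.17, 0.10 and 0.20 with antigenomic means subtracted. The shares of all genes were 20.8% and 17.5% lower and 11.9% and 14.8% higher on the deposited scale. Mki67, a marker of cycling cells, changed by -0.10 ± 0.13 and -0.29 ± 0.13 (adjusted p = 0.592 and 0.0962).

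**Figure D5:**
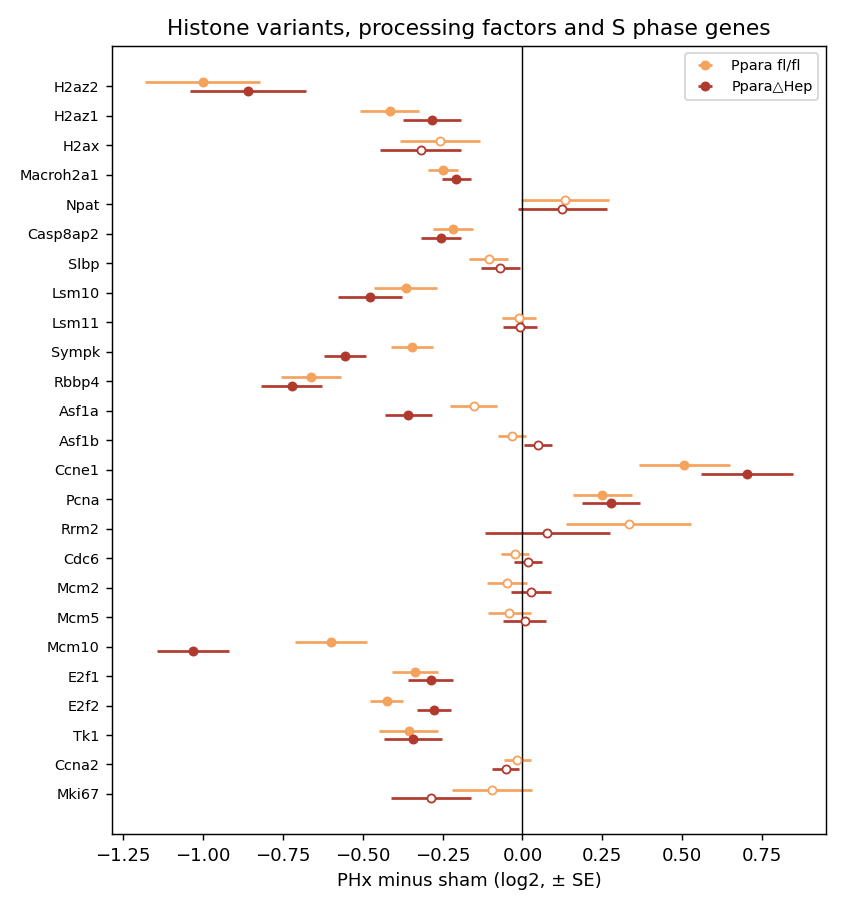
Change from sham to PHx (log2 difference ± SE, horizontal axis) of histone variants, histone mRNA and chaperone genes, and S phase and G2/M genes, in both genotypes; filled points passed at adjusted p below 0.05. Ccne1 and Pcna lie above 0 and H2az2, Rbbp4 and Mcm10 below it in both genotypes on all 5 scalings, while changes such as those of Casp8ap2, H2az1 and E2f2 turn above 0 in at least 1 genotype with antigenomic means subtracted.

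Markers of other liver cells moved with PHx as well on the deposited scale, where a fall of less than 0.33 turns to a rise with antigenomic means subtracted. The counts are to be read against all genes, of which 20.8% fell and 11.9% rose in fl/fl and 17.5% and 14.8% in Ppara△Hep livers. Of 8 Kupffer cell genes 3 fell in fl/fl and 6 in Ppara△Hep livers, the list's mean running from 5.02 to 5.71 on sham and 4.63 to 5.22 on PHx arrays. Stellate cell genes fell in 3 of 8 and erythroid genes in 3 of 5 in each genotype, and sinusoidal endothelial genes fell in 4 and rose in 1 of 8 in each. B cell genes fell in 4 of 6 in fl/fl and 0 in Ppara△Hep livers, and T and NK cell genes in 3 of 8 in fl/fl and 0 in Ppara△Hep livers, where 1 rose. Hepatocyte genes fell in 4 and 3 of 10 and rose in 0. Neutrophil genes rose in 1 of 8 in each genotype and fell in 1 in fl/fl livers, and cholangiocyte genes fell in 1 of 6 in each. In bulk liver, fewer cells of a type and less RNA per cell cannot be told apart, and the part of these cells in the histone changes was not tested.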

How the data were processed

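Liver RNA of 16 mouse samples was measured on Affymetrix arrays, 1 per sample. The authors deposited log2 values per probe set, for which the submitters' processing notes name RMA. The software and annotation release were not stated in the sources used here. Labelling followed a standard Affymetrix cDNA protocol, per the labels' protocols. They do not state the priming, which bears on mRNAs without a poly(A) tail. Of 72688 probe sets 30604 had 1 symbol; 828 symbols were brought up to date by Entrez identifier with RefSeq's GRCm38.p6 gene list, and the probe set with the highest mean stood for a gene. limma 3.58.1 in R 4.3.3 fitted 1 mean per group to all 16 arrays (12 residual degrees of freedom), with Benjamini-Hochberg adjustment over 30139 genes or 72688 probe sets and a threshold of 0.05. The fit was tested on simulated data. Fold values are 2 to the power of log2 changes.

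Promoters come from RefSeq (GRCm38.p6). Members named were, per comparison, the 10 with the smallest adjusted p that passed (or the 3 largest changes where under 3 passed), the 3 with the highest mean per class and any whose difference of PHx changes passed; from the other lists, up to 6 genes per list and PHx comparison with the smallest adjusted p, and a fixed set. The shared probe sets described in full were chosen after their values were seen. The members and lists were chosen with earlier results of these data known. Alternatives were cyclic loess, array medians, quantile normalization, a low-value filter, eBayes with trend and robust settings, the mean of a gene's probe sets, only the groups compared, and leaving out each array. Antigenomic scaling, the runs of title numbers as a term (9 residual degrees of freedom) and the fit of shared probe sets were added after seeing the data.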

Additional observations from a re-analysis of the deposited data

Results flagged for a closer look

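Each member was checked in each group of 4 arrays for an array set apart from the other 3 by a gap past Dixon's 95% critical value for the group's range, which chance passes in about 1 in 20 groups. Of 112 pairs of member and group, 1 was past it. H2ac12 stood at 1.28 on PHx fl/fl array 3, while the other 3 PHx fl/fl arrays lay at 1.03. The gene is near the level of the receptor genes, and its change in fl/fl livers was not called.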

How the results depend on the processing

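The number of members called in fl/fl livers, 6 as reported, was 10 after cyclic loess, 18 with array medians subtracted, 19 after quantile normalization, 2 with the low-value filter (which leaves fewer members in the test) and 13, all higher, with antigenomic means subtracted. In Ppara△Hep livers, 12 became 24 with array medians subtracted, 22 after quantile normalization, 3 with the low-value filter and 8, all higher, with antigenomic means subtracted. The members' median in fl/fl and Ppara△Hep livers was -0.26 and -0.38 with array medians subtracted, -0.23 and -0.32 after quantile normalization, -0.23 and -0.39 with the low-value filter, and 0.17 and 0.092 with antigenomic means subtracted. The medians of all genes were -0.15 and -0.14, -0.14 and -0.10, and 0.29 and 0.33 under the 3 scalings among these. The shares of all genes called lower there were 43.6% and 43.8%, 43.0% and 34.9%, and 3.5% and 4.49%. With antigenomic means subtracted 65.0% and 71.2% of all genes were called higher. The genotype median after sham was 0.13 with the low-value filter. For that filter the number of members left and the share of all genes called are not given here. Its counts therefore cannot be set beside the others. With the runs of title numbers as a term, 3 and 2 members were called, with medians of -0.23 and -0.38 and a median difference of -0.12 between the PHx changes; the shared probe sets gave medians of -0.61 and -0.76, with 18 calls in Ppara△Hep livers. Among shared probe sets, antigenomic scaling gave 12 and 11 calls with medians of -0.038 and -0.19, and array medians gave a median of -0.67 in Ppara△Hep livers. Shares of all probe sets called under these settings are not given here.

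Without each array in turn, calls ranged from 2 to 8 in fl/fl and 6 to 15 in Ppara△Hep livers for members, and from 16 to 23 and 21 to 29 for shared probe sets; genotype comparisons and the difference stayed at 0 calls. Shares of all genes or probe sets called with an array left out are not given here. Of 256 refits of 16 single-gene calls that left out an array, 218 kept the call and 38 lost it. Of 132 under other settings 100 kept it, 23 lost it and 9 reversed, all 9 with antigenomic means subtracted: in fl/fl livers H2ac18 (0.081), H4c1 (0.15) and H2bc9 (0.10), and in Ppara△Hep livers H3c8 (0.02), H3c3 (0.045), H4c1 (0.092), H2ac12 (0.091), H1f1 (0.036) and H2ac18 (0.092). No paired analysis was possible because no number in the titles is shared between groups; the fit with the runs of numbers is the nearest to it. Causes were not tested. Signal near background limits 23 of the 28 members.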

Other observations

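After PHx the arrays that stood highest for Ccne1 stood low for H1f2, a pattern chosen after the values were seen. In Ppara△Hep livers Ccne1 was 2.98, 3.204, 3.64 and 3.75 on PHx arrays 1 to 4, and H1f2 was 6.38, 6.26, 4.82 and 4.18. In fl/fl livers Ccne1 was 3.13, 3.51, 3.43 and 3.18, and H1f2 was 5.86, 5.31, 4.55 and 6.63. H2bc21 followed H1f2, at 3.02, 2.81, 2.58 and 2.10 in Ppara△Hep and 3.03, 2.48, 2.31 and 3.17 in fl/fl livers. The 4 sham arrays of either group differed less for H1f2 (5.35 to 6.34 in fl/fl and 6.03 to 6.47 in Ppara△Hep livers). For H2bc21 the spread after sham was nearer to that after PHx. Its SD was 0.31 after sham and 0.41 after PHx in fl/fl, and 0.37 and 0.39 in Ppara△Hep livers. The split of the PHx Ppara△Hep arrays follows the runs of title numbers, arrays 1 and 2 against arrays 3 and 4, whereas PHx fl/fl arrays 3 and 4, which share a run, had H1f2 at 4.55 and 6.63. The split was not confined to these genes. The sinusoidal endothelial marker Lyve1 stood at 5.97, 6.21, 8.04 and 7.71 in PHx Ppara△Hep and 6.23, 7.64, 7.62 and 5.63 in PHx fl/fl livers. Stab2 of the same list was not split so, at 5.87, 5.38, 5.38 and 5.54 and at 5.88, 5.91, 5.70 and 5.89. No relation among these genes was tested.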
